A study of Mus musculus with 9 samples.

Results

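The transcription factors of the osteoblast lineage were taken by name: Runx2, Sp7, Dlx3, Dlx5, Dlx6, Msx1, Msx2, Twist1 and Cbfb, which are 9 of the 39179 genes counted in each library. All 9 were found in the count tables through their Ensembl identifiers and the GENCODE annotation of GRCm38, and the rule that names them uses no measured value. RNA came from single capillaries with their surrounding cells, cut by laser microdissection from the ossification front (OF) of the femur, where the growth plate gives way to new trabecular bone. The mice were on a C57BL/6 background and carried a Tie2-GFP transgene, Tg(TIE2GFP)287Sato/J in the labels, in which the Tie2 promoter drives GFP in endothelial cells, and both ages carried it. Juvenile mice were 4 weeks old (n = 5 libraries) and adult mice were 12 weeks old (n = 4 libraries), and the labels name no treatment. Each library held the cells cut around the vessels as well as the vessels, pooled from many cut pieces, so a level is an average over cell types.

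RUNX2 is the DNA-binding factor that commits mesenchymal progenitors to the osteoblast fate, and it binds DNA together with its non-DNA-binding partner CBFB. SP7 (osterix) acts downstream of RUNX2 and is needed for preosteoblasts to become bone-forming osteoblasts. The DLX and MSX homeodomain proteins act on RUNX2, SP7 and osteocalcin promoters in skeletal cells, and TWIST1 is a bHLH factor of early mesenchyme that restrains RUNX2.

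Promoter sequence was available for 5 of the 9 factors in a RefSeq table of GRCm38.p6, each as a window of 300 bases from 250 before to 50 after an annotated start. Windows were searched on both strands for the RUNX core TGTGGT, which reads ACCACA on the other strand, for the homeodomain core TAATTA, which is its own reverse complement, and for the GC box GGGCGG, a letter pattern that SP family proteins can bind. No stretch of bases can match more than 1 of these motifs in full. Of all 32851 windows in the table, 16.8% held the RUNX core, 5.29% the homeodomain core and 35.7% the GC box. Among the 5 factors, the RUNX core was found only in the Runx2 window, the homeodomain core only in the Msx2 window, and the GC box in 4 of the 5. Both short stretches are shown as transcribed, 5′ to 3′, with the match in capitals. The Msx2 stretch carries the only homeodomain match of the 5 windows, and the Runx2 stretch the only 1 of the 3 RUNX matches in its window that lies before the start. They lie on the minus strand at chr17:44814690-44814719 for Runx2 and chr13:53472950-53472979 for Msx2, inside annotated exons of longer transcripts. The first base of the match shown is at -80 from the start in Runx2 and at -187 in Msx2, and the 2 further RUNX matches of Runx2 begin at bases 24 and 32 after the start, counted from 1.
Runx2: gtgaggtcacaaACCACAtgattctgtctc
Msx2: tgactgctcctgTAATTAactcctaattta

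Among the 18 osteoblast products listed for comparison (matrix proteins, mineral genes and the PTH receptor), 15 had an entry, with 20 windows, of which 6 held the RUNX core, 3 the homeodomain core and 5 the GC box. Shown are Bglap (osteocalcin, the classical RUNX2 target of mature osteoblasts) and Dmp1 (a matrix phosphoprotein of late osteoblasts and osteocytes). They were picked because each has a window with 1 RUNX core, in capitals, and their RNA levels differed between the ages in opposite directions. Their values are given with the other products. The other Dmp1 window, chr5:104197325-104197624, held no RUNX core. The Bglap stretch is chr3:88384467-88384716 on the minus strand with the match at -132, and the Dmp1 stretch is chr5:104202367-104202612 on the plus strand with the match at -164. A match of letters is a description and not a measured binding site.
Bglap: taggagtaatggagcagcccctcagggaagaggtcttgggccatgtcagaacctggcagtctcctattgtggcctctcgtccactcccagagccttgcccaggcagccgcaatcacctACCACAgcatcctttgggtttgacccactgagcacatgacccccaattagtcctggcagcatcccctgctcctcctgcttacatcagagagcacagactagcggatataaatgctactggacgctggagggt
Dmp1: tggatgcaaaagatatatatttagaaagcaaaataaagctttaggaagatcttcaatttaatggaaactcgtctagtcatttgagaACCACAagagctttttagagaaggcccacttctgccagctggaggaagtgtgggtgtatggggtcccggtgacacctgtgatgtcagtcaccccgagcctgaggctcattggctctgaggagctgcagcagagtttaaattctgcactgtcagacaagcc

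Library totals ranged from 4856833 to 8077362 counts on genes, and 3 counts, taken as the floor of detection, correspond to 0.347 to 0.638 CPM, the unit of counts scaled to the TMM-adjusted library total. The floor covers counting error only, because PCR copies are not independent molecules. In each of the 36 pairs of libraries the counts differed by far more than sampling noise. Juvenile replicates 4 and 5 held 524 and 439 counts of the Y-linked gene Ddx3y, while the other 7 libraries had at most 1 count of it and 2965 to 6598 counts of Xist, so all 4 adult libraries were of the Xist kind and each called factor is also given within those 7 libraries. The labelled tissue was checked by marker genes. All 12 endothelial markers passed the filter on low counts, among them Cdh5 (VE-cadherin) and Pecam1, and their summed level was 672 to 1041 CPM in juvenile and 907 to 1051 CPM in adult libraries. The libraries were also rich in osteoblast and osteoclast RNA, with summed levels of 81390 CPM or more for the 18 osteoblast products and 13310 CPM or more for 10 osteoclast markers in every library.

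Of the 9 factors, 8 passed the filter on low counts and were tested, and 2 were called different between the ages, both higher in juvenile OF: Sp7 and Dlx3. A call is an adjusted p under 0.05 in the quasi-likelihood test of edgeR, adjusted by the Benjamini-Hochberg method over all 13418 genes tested. Of those genes, 1.99% were called higher in juvenile and 1.89% higher in adult libraries, 3.88% in all. The study describes the samples of an age as taken from different mice, while the labels tie no library to a mouse, and the p-values measure the spread between these libraries. The log2 fold change, juvenile over adult, was above 0 for 7 of the 8, with a median of 0.60 beside -0.01 over all genes tested. In 3 of the 8 (Sp7, Dlx3 and Cbfb) every juvenile library was above every adult library, which was so for 5.09% of all tested genes, while 4.08% of them separated the other way and none of the 8 factors did. In tissue RNA of this kind, fewer cells of a type and less RNA per cell cannot be told apart.

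**Figure D1:**
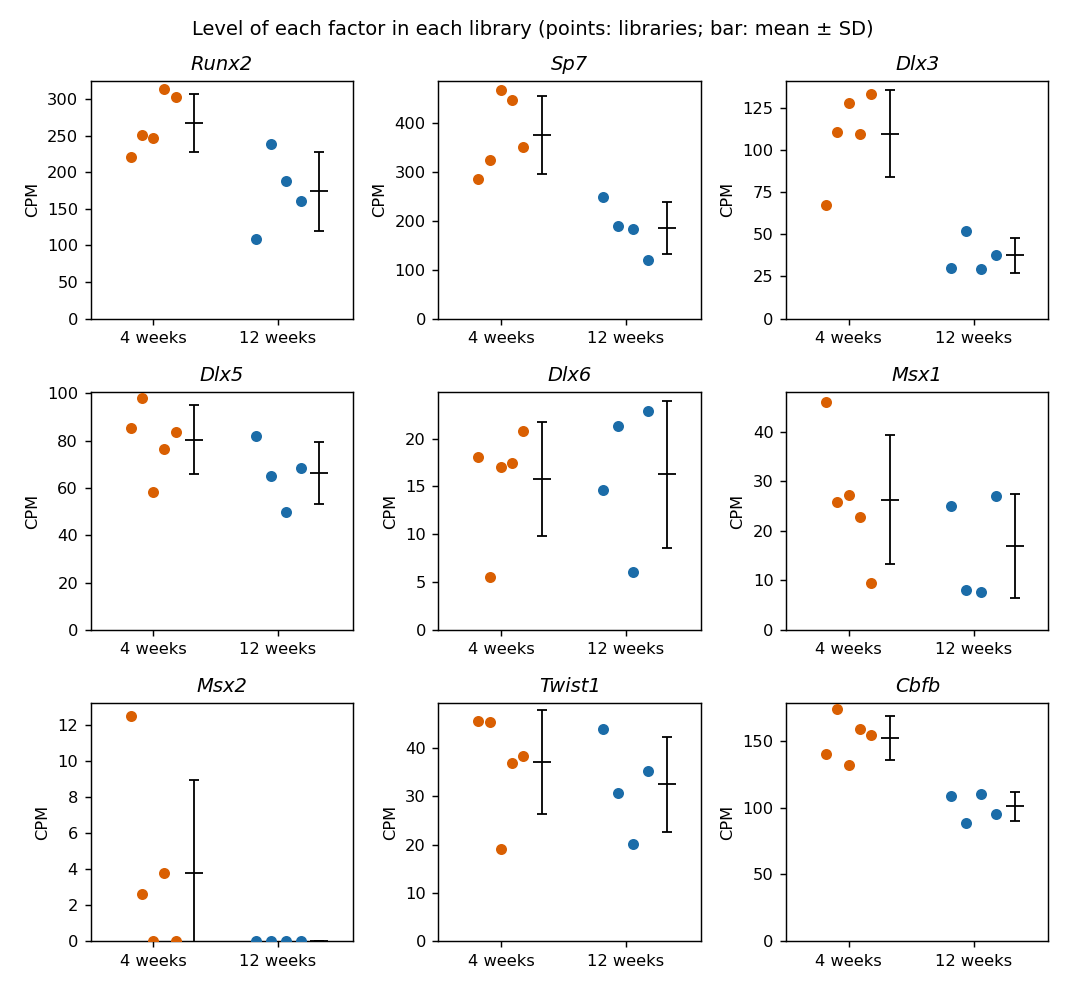
Level of each of the 9 factors (y axis, CPM, linear from 0) in the juvenile (4 weeks, n = 5) and adult (12 weeks, n = 4) libraries. Points are libraries and the bar beside them is the mean with the SD. Sp7, Dlx3 and Cbfb show no overlap between the ages, Msx2 is above 0 in 3 juvenile libraries only, and Dlx5, Dlx6, Msx1 and Twist1 overlap widely.

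Runx2 (chr17:44495987-44814797, minus strand) was present in every library. Its levels in juvenile replicates 1 to 5 were 220.3, 251, 246, 314 and 303 CPM, and in adult replicates 1 to 4 they were 109, 238.5, 188 and 161 CPM. Adult replicate 2 lay within the juvenile range and the other 3 adult libraries lay below it. Mean levels were 267 ± 40.0 (SD, n = 5) and 173.9 ± 54.1 CPM (SD, n = 4). This gave a log2 fold change of 0.62 (SE 0.22, 95% confidence interval 0.14 to 1.09), which did not pass the threshold after adjustment (edgeR, adjusted p = 0.149, unadjusted p = 0.0147), and an exact two-sided permutation test of log2 CPM gave p = 0.0159. Over the 18 alternative settings and library sets, the adjusted p ran from 0.0610 to 0.553. Runx2os1, annotated on the opposite strand, shares 519 bases (5.87%) of the Runx2 exons, and the counts carry no stated strand, so reads in that stretch cannot be assigned to either gene.

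Cbfb (chr8:105170674-105217989, plus strand), the partner that stabilises RUNX proteins on DNA, had 140.1, 174, 132, 159 and 155 CPM in the juvenile and 109, 88.9, 110.4 and 95.5 CPM in the adult libraries. The lowest juvenile library was above the highest adult library, and the spread within each age was small. Its log2 fold change was 0.59 (SE 0.17, 95% confidence interval 0.23 to 0.95), with an adjusted p of 0.0717 in edgeR, which missed the threshold, and an exact two-sided permutation p of 0.00794, the smallest that 5 against 4 libraries can give. DESeq2 with its default settings called Cbfb (adjusted p = 0.00805), and the adjusted p over all 18 alternatives ran up to 0.295. Runx2 and Cbfb had fold changes of like size, and the log2 ratio of Runx2 to Cbfb differed by 0.07 between the ages (exact two-sided permutation p = 0.810).

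Sp7 (chr15:102356606-102367182, minus strand) had 285.5, 324, 468, 448 and 351 CPM in the juvenile and 249, 189.5, 183 and 119 CPM in the adult libraries. Every juvenile library was above every adult library, with juvenile replicate 1 and adult replicate 1 closest to each other. The means were 375 ± 79.2 (SD, n = 5) and 185 ± 53.4 CPM (SD, n = 4), a 2.03-fold higher level in juvenile OF. On the log2 scale the fold change was 1.02 (SE 0.23, 95% confidence interval 0.53 to 1.51; edgeR, adjusted p = 0.0270; exact two-sided permutation p = 0.00794). Sp7 lost its call, with an adjusted p of 0.0580 to 0.0734 in edgeR, when juvenile replicate 3, 4 or 5 or adult replicate 3 or 4 was left out, and its log2 fold change then ran from 0.84 to 1.04. Within the 7 libraries of the Xist kind, the log2 fold change was 0.96 with an adjusted p of 0.170 in edgeR, the highest over the 18 alternatives, of which the lowest was 0.00124.

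Dlx3 (chr11:95120119-95125296, plus strand), a homeodomain factor of skin, tooth and bone whose mutation in humans causes tricho-dento-osseous syndrome, showed the largest fold change of the 8 tested factors. Its levels were 67.3, 111, 127.5, 109.6 and 133 CPM in the juvenile and 30.3, 52.1, 29.7 and 37.7 CPM in the adult libraries. The ages did not overlap, with juvenile replicate 1 and adult replicate 2 closest to each other. The means of 109.6 ± 25.8 (SD, n = 5) and 37.5 ± 10.4 CPM (SD, n = 4) gave a 2.93-fold higher level in juvenile OF, a log2 fold change of 1.55 (SE 0.26, 95% confidence interval 0.98 to 2.12; edgeR, adjusted p = 0.00775; exact two-sided permutation p = 0.00794). Dlx3 kept its call with each of the 9 libraries left out in turn, at adjusted p-values of 0.00432 to 0.0257 in edgeR. Within the 7 libraries of the Xist kind, its log2 fold change was 1.45 and the adjusted p was 0.0956 in edgeR, the highest over the 18 alternatives, of which the lowest was 1.43e-06.

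**Figure D2:**
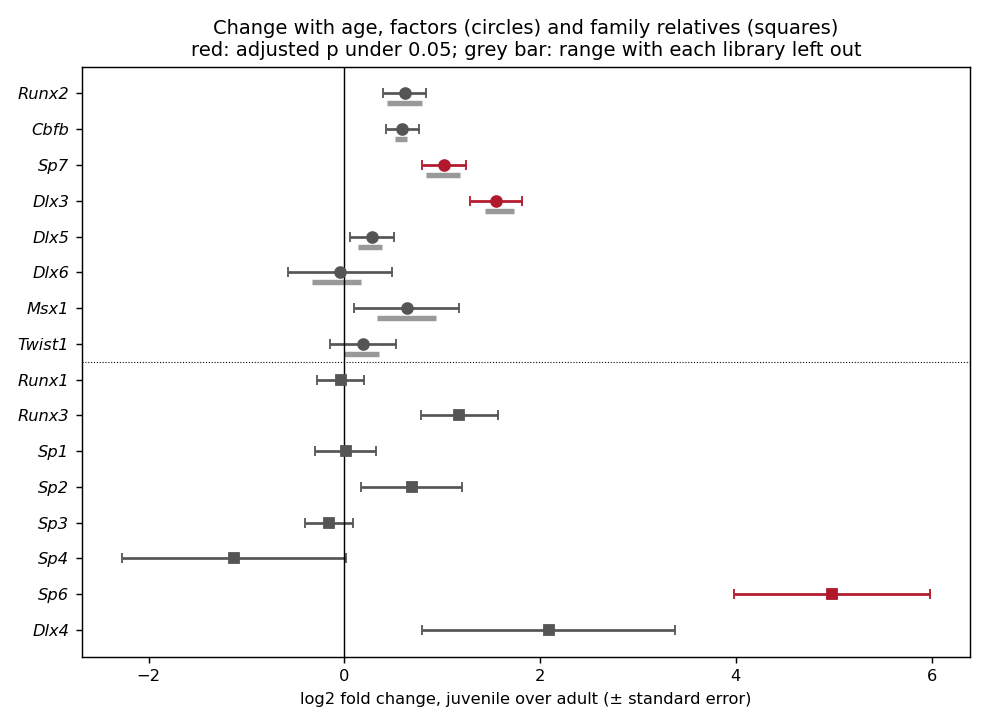
Log2 fold change, juvenile over adult, with its standard error (x axis) for the 8 tested factors (circles) and 8 tested family relatives (squares), in red where the edgeR adjusted p was under 0.05. Grey bars are the range of the log2 fold change with each library left out in turn; Sp7 at 1.02, Dlx3 at 1.55 and Sp6 at 4.98 are the called genes, and the grey bar of Dlx6 crosses 0.

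Dlx5 and Dlx6, neighbours 9236 bases apart on opposite strands of chromosome 6, are known for their joint role in skeletal patterning and osteoblast differentiation. Dlx5 (chr6:6877805-6882085) had 85.6, 98.1, 58.1, 76.6 and 83.5 CPM in the juvenile and 82.1, 65.1, 49.7 and 68.3 CPM in the adult libraries. The ages overlapped, with adult replicates 1, 2 and 4 inside the range of the juvenile libraries and replicate 3 the lowest of each age. The log2 fold change was 0.28 (SE 0.22, 95% confidence interval -0.21 to 0.76; edgeR, adjusted p = 0.610). Dlx6 (chr6:6863334-6868568) was lower, at 18.1, 5.47, 17.03, 17.5 and 20.8 CPM in the juvenile and 14.7, 21.4, 6.06 and 22.9 CPM in the adult libraries. Juvenile replicate 2 and adult replicate 3 were the low libraries, and the remaining 7 lay between 14.7 and 22.9 CPM. The log2 fold change of Dlx6 was -0.04 (SE 0.53, 95% confidence interval -1.19 to 1.10; edgeR, adjusted p = 0.985), and its sign turned with the library left out, from -0.33 to 0.17.

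Whether the 3 Dlx genes differed from each other in their age difference was tested on the ratio scale. The log2 ratio of Dlx3 to Dlx5 went from -0.83 ± 0.46 (SD, n = 4) in adult libraries to 0.43 ± 0.55 (SD, n = 5) in juvenile libraries, a difference of 1.26 (exact two-sided permutation p = 0.0238, 0.0536 after Benjamini-Hochberg adjustment over the 9 gene pairs compared). For Dlx3 to Dlx6 the difference was 1.55 with the same exact permutation and adjusted p-values. These pairs were chosen after the single values had been seen, and after adjustment neither passed 0.05. Dlx5 took 29.8% to 49.3% of the Dlx counts per kb of exon in juvenile and 49.8% to 67.1% in adult libraries, and Dlx3 33.7% to 56.8% and 21.5% to 34.6%. Dlx4, which lies 15150 bases from Dlx3 on the opposite strand of chromosome 11 and was also chosen after its values were seen, had 17.6, 16.9, 14.1, 15.2 and 8.48 CPM in the juvenile and 0, 0, 13.0 and 0.501 CPM in the adult libraries. One adult library, replicate 3, thus reached the juvenile range, and the log2 fold change of 2.09 (SE 1.30) was not called (edgeR, adjusted p = 0.466). Dlx1 and Dlx2 had no count in 8 of the 9 libraries.

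Msx1 (chr5:37820485-37824583, minus strand), a homeodomain factor of craniofacial and tooth mesenchyme, had 46.1, 25.9, 27.2, 22.7 and 9.54 CPM in the juvenile and 25.0, 8.02, 7.55 and 27.1 CPM in the adult libraries. The values of each age spread several-fold and overlapped, and the log2 fold change of 0.64 (SE 0.54, 95% confidence interval -0.52 to 1.80) was not called (edgeR, adjusted p = 0.629). Msx2 (chr13:53466884-53473074, minus strand), which in bone is known as a BMP-responsive factor of proliferating osteoprogenitors, was the least abundant factor and did not pass the filter on low counts. It had 69, 18, 0, 20 and 0 counts in the juvenile libraries, or 12.5, 2.59, 0, 3.75 and 0 CPM, and 0 counts in all 4 adult libraries. Against a floor of 3 counts in each adult library, its juvenile mean of 3.77 CPM was at least 9.46-fold higher, and without juvenile replicate 1, which held most of the counts, it was at least 3.98-fold higher. An exact two-sided permutation test of CPM gave p = 0.167, and without a filter edgeR gave an adjusted p of 0.112, so that Msx2 missed the threshold. DESeq2 with its default settings did call it.

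Twist1 (chr12:33957671-33959829, plus strand) had 45.7, 45.4, 19.2, 37.0 and 38.4 CPM in the juvenile and 43.9, 30.7, 20.2 and 35.2 CPM in the adult libraries. The ages overlapped, and replicate 3 was the lowest library of each. Twist1 had a log2 fold change of 0.19 (SE 0.34, 95% confidence interval -0.53 to 0.92; edgeR, adjusted p = 0.853). The Twist1 relative Twist2 had no count in any of the 9 libraries.

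To set the levels of the factors beside each other, CPM was divided by the length of the merged exons in kb. Sp7 was the most abundant factor at both ages, at 110 ± 23.3 CPM per kb (SD, n = 5) in juvenile libraries and 54.5 ± 15.7 (SD, n = 4) in adult ones, and it was above each other factor in every library. In juvenile libraries it was followed by Cbfb (43.7 ± 4.74 CPM per kb), Dlx3 (42.0 ± 9.89), Dlx5 (35.5 ± 6.49), Runx2 (30.2 ± 4.52), Twist1 (22.8 ± 6.63), Msx1 (8.49 ± 4.22), Dlx6 (6.64 ± 2.50) and Msx2 (1.15 ± 1.57). Of the neighbours in this order only Sp7 and Cbfb had ranges that did not overlap. In adult libraries Dlx5 (29.3 ± 5.86 CPM per kb) and Cbfb (29.0 ± 3.03) followed Sp7, then Twist1 (19.97 ± 6.07), Runx2 (19.7 ± 6.12), Dlx3 (14.4 ± 4.00), Dlx6 (6.85 ± 3.24), Msx1 (5.46 ± 3.41) and Msx2 with no count. Dlx3 thus was among the 3 factors with the highest mean level per kb in juvenile but not in adult OF. Among adult neighbours, the ranges did not overlap between Dlx3 and Dlx6 and between Msx1 and Msx2.

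**Figure D3:**
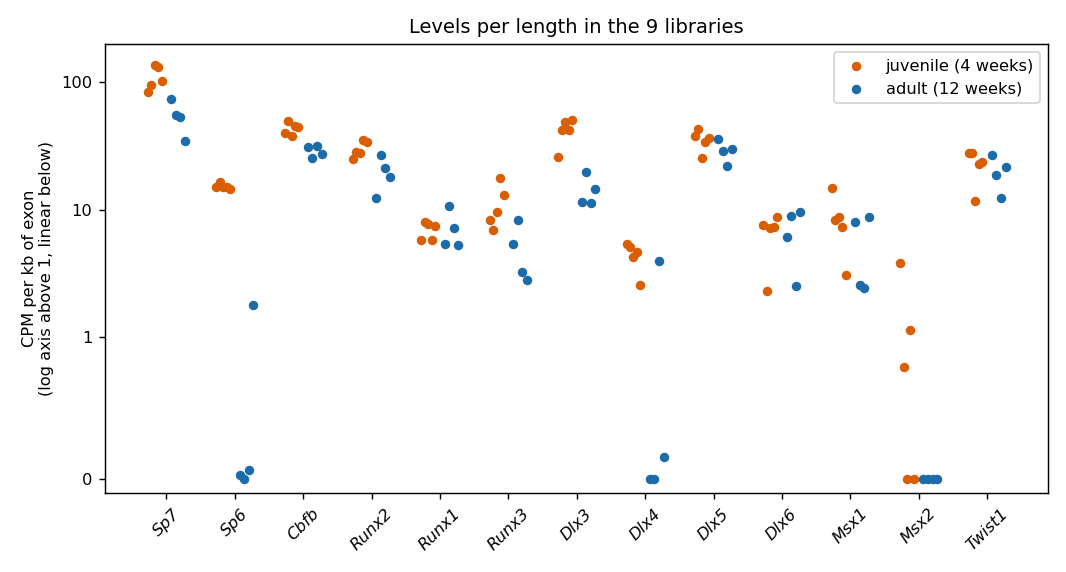
Level per kb of exon (y axis, CPM per kb, logarithmic above 1 and linear below) of the 9 factors and 4 relatives in each juvenile (4 weeks) and adult (12 weeks) library, 1 point per library. Sp7 lies highest at both ages, and Sp6 falls from the middle of the range in juvenile to near 0 in 3 of the 4 adult libraries.

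Among 16 relatives of the factors from the Runx, Sp, Dlx, Msx and Twist families, 8 were tested, 1 was called higher in juvenile and 0 higher in adult libraries (267 and 253 of all 13418 genes), with a median log2 fold change of 0.35. The called gene was Sp6 (epiprofin), a close relative of Sp7 that is known from tooth, limb and skin. It had 58.2, 63.4, 57.7, 58.2 and 56.4 CPM in the juvenile and 0.116, 0, 0.247 and 6.89 CPM in the adult libraries, and the juvenile libraries lay within a narrow band far above the adult ones. For Sp6 the log2 fold change was 4.98 (SE 1.001; edgeR, adjusted p = 0.0165), it stayed called with each of the 9 libraries left out, and without adult replicate 4, the only adult library above 1 CPM, it was 8.59. Of the Sp6 exons, however, 86.7% lie under the exons of Gm11532 on the opposite strand, whose own counts were 327, 415, 281, 246 and 250 in the juvenile and 16, 10, 3 and 50 in the adult libraries, and without strand the reads of the pair cannot be told apart. In the 7 libraries of the Xist kind, 0 of 8 tested relatives were called in either direction by edgeR.

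The broad Sp factors Sp1, Sp2, Sp3 and Sp4, chosen here after their values were seen, had log2 fold changes of 0.01, 0.69, -0.15 and -1.13, and none was called. Sp5 and Sp8 had no count in any library. Of the other RUNX proteins, also named after their values were seen, Runx1 (the blood stem cell factor, also present in skeletal progenitors) ranged from 69.4 to 96.1 CPM in juvenile and 64.4 to 128 CPM in adult libraries, with a log2 fold change of -0.04 (SE 0.24; edgeR, adjusted p = 0.969). Runx3 (a factor of T cells, cartilage and bone) had 41.5, 34.9, 48.5, 88.6 and 65.5 CPM in the juvenile and 26.8, 41.8, 16.3 and 14.0 CPM in the adult libraries. Its log2 fold change of 1.18 (SE 0.39) missed the threshold (edgeR, adjusted p = 0.121), and adult replicate 2 lay inside the juvenile range. Runx2 made up 60.1% to 65.5% of the Runx counts per kb of exon in juvenile and 53.4% to 69% in adult libraries. The log2 ratio of Runx2 to Runx1 was 1.67 ± 0.31 (SD, n = 5) in juvenile against 1.02 ± 0.25 (SD, n = 4) in adult libraries. The ages did not overlap (exact two-sided permutation p = 0.00794, 0.0357 adjusted over the same 9 pairs). This pair too was chosen after the values were seen, which the adjustment does not account for. The part of blood cells in the ratio was not tested.

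Of 23 partners and regulators of RUNX2, among them the Groucho-type corepressors, histone deacetylases, BMP SMADs, SMURF ubiquitin ligases and the coactivators TAZ and p300, all 23 were tested and none was called in either direction by edgeR at an adjusted p under 0.05, while DESeq2 with its default settings called 1 higher in juvenile and 1 higher in adult libraries. The log2 fold change was above 0 for 18 of the 23, with a median of 0.28. The 3 members that follow are named after their values were seen. Smurf1, a ubiquitin ligase for SMADs and RUNX2, averaged 39.2 ± 8.65 CPM in the 5 juvenile and 17.9 ± 6.29 CPM (SD) in the 4 adult libraries, without overlap (edgeR, adjusted p = 0.101). Tle4, a Groucho-type corepressor, had 7.74 ± 3.40 and 33.2 ± 34.01 CPM (edgeR, adjusted p = 0.0845), with overlap. Smad1, a BMP effector, had 74.5 ± 31.0 and 40.6 ± 12.1 CPM, also with overlap (edgeR, adjusted p = 0.177).

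Of 30 other transcription factors with a known role in osteoblasts, 25 were tested, 3 were called higher in juvenile and 2 higher in adult libraries, and the median log2 fold change was -0.10. Tcf7, a nuclear effector of Wnt signalling, ranged from 126 to 154 CPM in juvenile and 17.04 to 61.5 CPM in adult libraries (log2 fold change 2.12, SE 0.35; edgeR, adjusted p = 0.00636). Atf4, which drives late osteoblast protein synthesis, ranged from 268.5 to 367 CPM and from 193 to 221 CPM (log2 fold change 0.62, SE 0.15; edgeR, adjusted p = 0.0398). For Tcf7 and Atf4, as for Sp7 and Dlx3, the ages did not overlap. With each of the 9 libraries left out in turn, Tcf7 was called in 9 of 9 fits. Atf4 was called in 1 of 9 (edgeR, adjusted p up to 0.103, kept only without juvenile replicate 2).

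The 2 genes of this list called higher in adult libraries were Maf and Nfatc1. Maf, a factor that acts with RUNX2 in osteoblasts and is also expressed in macrophages, had 159, 90.3, 91.1, 98.4 and 83.9 CPM in the juvenile and 253, 236, 194 and 244 CPM in the adult libraries (log2 fold change -1.15, SE 0.21; edgeR, adjusted p = 0.0116). Nfatc1, the central factor of osteoclast differentiation with a further role in osteoblasts, had a log2 fold change of -1.07 (SE 0.21; edgeR, adjusted p = 0.0142), with 86.6 to 162 CPM in juvenile and 196 to 308 CPM in adult libraries. Both stayed called with each library left out. Beside these 2 genes, 2 of 9 tested macrophage markers and 2 of 10 osteoclast markers were called higher in adult and none in juvenile libraries, with summed osteoclast levels of 13310 to 21760 CPM in juvenile and 17130 to 26160 CPM in adult libraries, and the part of these cells in Maf and Nfatc1 was not tested. In the 7 libraries of the Xist kind, none of the 25 tested genes of this list was called in either direction.

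The products of osteoblasts did not move uniformly. Of 18 products, 7 were called higher in juvenile and 2 higher in adult libraries, and the median log2 fold change was 0.59. Col1a1 and Col1a2, the chains of type I collagen, had log2 fold changes of 1.37 (SE 0.14; edgeR, adjusted p = 0.000426) and 1.26 (edgeR, adjusted p = 0.00109). Dmp1 had the largest log2 fold change among those called higher in juvenile OF, 1.93 (edgeR, adjusted p = 0.00203). Its levels were 1417 ± 463 CPM (SD, n = 5) in juvenile and 373 ± 85.2 CPM (SD, n = 4) in adult libraries. Sparc (osteonectin), with a log2 fold change of 1.21, was the next by adjusted p (edgeR, 0.00263). Bglap and its near-identical neighbour Bglap2 went the other way, with log2 fold changes of -2.04 (SE 0.40; edgeR, adjusted p = 0.0151) and -2.38 (SE 0.41; edgeR, adjusted p = 0.00827), and reads shared between the copies make the split between them uncertain. In the 7 libraries of the Xist kind, 5 products were called higher in juvenile and 0 higher in adult libraries. Dmp1 and Bglap, which each have a promoter window with the RUNX core, were called in opposite directions over all 9 libraries. They had been picked for showing on that ground.

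Each factor was next scaled within its library, as its log2 CPM minus the mean log2 CPM of the 18 products. That mean was 9.97 ± 0.11 over the 5 juvenile and 9.77 ± 0.37 (SD) over the 4 adult libraries, a difference of 0.20 (exact two-sided permutation p = 0.310). It weighs each product alike, whatever its level. Sost, with means of 2.44 and 25.7 CPM in juvenile and adult libraries, and Omd, with 48.0 and 14.6 CPM, thus weigh as much as Col1a1. The summed level of the same 18 products was 220400 to 272300 CPM in juvenile and 81390 to 123000 CPM in adult libraries, without overlap. Sp7 was at -1.44 ± 0.21 in juvenile and -2.29 ± 0.23 in adult libraries on this scale, a difference of 0.85 with no overlap (exact two-sided permutation p = 0.00794). Dlx3 was at -3.23 ± 0.35 and -4.57 ± 0.67, a difference of 1.35 with no overlap (exact two-sided permutation p = 0.00794). With Dmp1 and Sost taken out of the reference, the difference was 0.70 for Sp7 and 1.20 for Dlx3 (exact two-sided permutation p = 0.00794 for each). The difference was 0.39 for Cbfb (exact permutation p = 0.0556), 0.47 for Runx2 (exact permutation p = 0.198), 0.51 for Msx1, 0.08 for Dlx5, -0.02 for Twist1 and -0.20 for Dlx6, and none of these 6 reached 0.05.

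These values depended on the reference, whose own age difference is subtracted alike from every factor. Another reference therefore shifts all factors by the same amount and leaves their order as it was. Against the median of the same 18 products, Dlx3 was still higher in juvenile libraries by 0.86 (exact permutation p = 0.0476), Sp7 by 0.36 (exact permutation p = 0.151), and Runx2 and Cbfb turned to -0.02 and -0.09. Against Col1a1 alone, the most strongly called of the products, every factor but Dlx3 and Msx2 was lower in juvenile libraries: Sp7 by -0.34 (exact permutation p = 0.159), Runx2 by -0.72 (exact permutation p = 0.0397), Cbfb by -0.79, Dlx5 by -1.10 and Twist1 by -1.20 (exact permutation p = 0.00794 for each of these 3), Dlx6 by -1.39 (exact permutation p = 0.0397) and Msx1 by -0.67 (exact permutation p = 0.341), while Dlx3 differed by 0.16 (exact permutation p = 0.595). Col1a1 RNA thus differed more between the ages than the RNA of Runx2, Cbfb, Dlx5, Dlx6 and Twist1 by unadjusted p-values, and for Sp7, Dlx3 and Msx1 no difference from Col1a1 was detectable with these libraries.

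**Figure D4:**
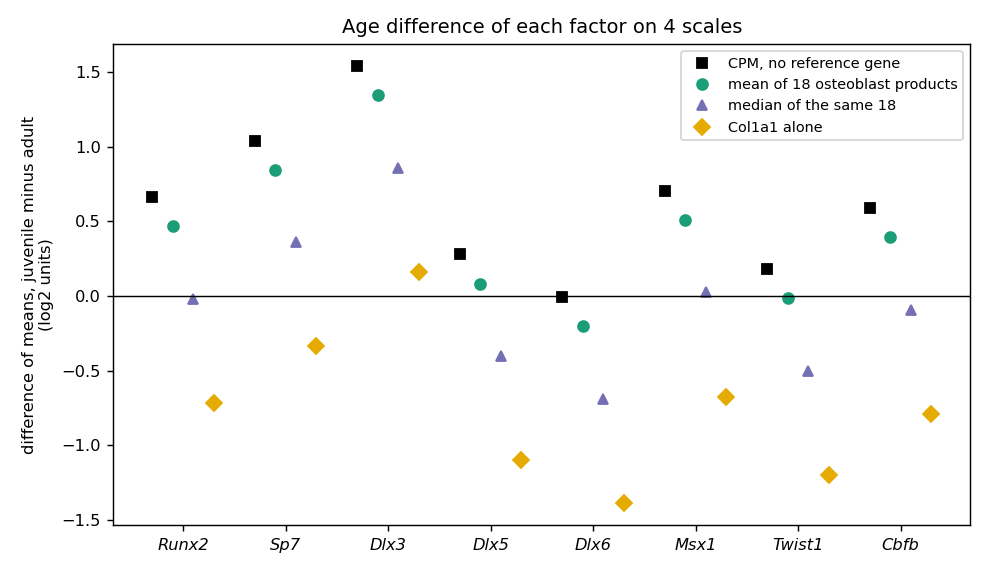
Difference between the mean log2 values of juvenile and adult libraries (y axis, log2 units) for 8 factors, as log2 CPM (squares), relative to the mean (circles) or the median (triangles) of 18 osteoblast products, and relative to Col1a1 alone (diamonds). The scales differ only by the age difference of the reference subtracted, so the steps between them are the same for every factor. Dlx3 stays above 0 on all 4 scales, at 0.16 for Col1a1, and Sp7 turns to -0.34 there.

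Marker genes of other cells in the cut pieces moved with age beside these factors. Erythroid markers were called higher in adult libraries in 8 of 8 tested, with a summed level of 419 to 2555 CPM in juvenile and 4716 to 37040 CPM in adult libraries, and neutrophil markers in 9 of 10 tested, with 18.1 to 74.0 CPM and 107.6 to 4649 CPM. Macrophage markers were called higher in adult libraries in 2 of 9, with 559 to 861 CPM and 1113 to 1857 CPM, and Cd5l was at 0 in all 9 libraries. Of 5 tested megakaryocyte markers 1 was called higher in adult libraries, and none of 5 B cell, 12 endothelial and 9 pericyte markers was called in either direction by edgeR. Summed endothelial, pericyte, B cell, megakaryocyte and chondrocyte levels overlapped between the ages. The B cell, megakaryocyte and chondrocyte sums had juvenile medians of 43.9, 522 and 2795 CPM. Most of each was 1 gene: Ebf1, Itgb3 and Col11a1, with juvenile means of 39.4, 479 and 2152 CPM. Ebf1 is also on the adipogenic stroma list and Itgb3 on the osteoclast list. In the same order, the median log2 fold change of the tested markers was -2.42, -3.13 and -2.10. The log2 fold change was above 0 for 0 of 5, 0 of 5 and 2 of 12. Among chondrocyte markers 1 of 12 was called higher in juvenile (Col11a1, also expressed by osteoblasts) and 2 in adult libraries (Col2a1 and Comp), and Sox9, the defining cartilage factor, was at 3.29 ± 1.59 and 11.5 ± 10.8 CPM. Among adipogenic stroma markers, 1 of 12 (Lepr, the leptin receptor) was called higher in juvenile and 2 (Cxcl12 and Vcam1) higher in adult libraries. In an alternative fit, 31 genes were taken out of the counts: mitochondrial, globin and immunoglobulin genes, Xist and genes of the Y chromosome. The log2 fold change was then 1.02 for Sp7 and 1.55 for Dlx3 (edgeR, adjusted p = 0.0264 and 0.00767). Other blood cell transcripts stayed in. Of the markers tested in that fit, 4 of 4 erythroid and 9 of 10 neutrophil markers were still called higher in adult libraries. Removing so few genes could hardly move the fold changes of other genes, so this fit does not decide the part of blood cells. The part of the other cells in the levels of the factors was not tested.

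The pattern of 3 factors over the 9 libraries was compared with that of 9935 tested genes with a mean of at least 10 CPM. Pearson's r of log2 CPM is given as a description, because the libraries differ in age and depth. A difference between the ages thus enters into r. The genes named are the highest of all those searched, so their r is high in part by this choice. For Runx2 the most alike were Neurl1a (r = 0.97), Pgbd5 (0.96), Huwe1 (0.96), Foxo1 (0.96) and Col11a1 (0.95). For Sp7 they were Fkbp11 (r = 0.98), Plcd1 (0.97), Tmem119 (0.97), Efemp2 (0.97) and Gm26841 (0.96). Tmem119 is known as a membrane protein of osteoblasts and microglia, and Fkbp11 as a chaperone of the secretory pathway. For Dlx5 they were Unc45a (r = 0.96), Ikbkb (0.95), Copg2 (0.94), Twist1 (0.93) and Trmt10c (0.92), and Twist1 is itself among the 9 factors. For the deviations from the mean of each age, r of the genes named ran from 0.90 to 0.95 for Runx2, 0.87 to 0.94 for Sp7 and 0.91 to 0.97 for Dlx5.

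Among the pairs of tested factors, Dlx5 and Twist1 followed each other most closely. Pearson's r was 0.93 and Spearman's rho 0.95 over the 9 libraries, and r was 0.97 for the deviations from the mean of each age. Without adult replicate 3 and juvenile replicate 3, the libraries farthest from the median of Dlx5 and the lowest of their ages in both genes, r was 0.90 over 7 libraries. The log2 ratio of Dlx5 to Twist1 was 1.15 ± 0.26 over the 5 juvenile and 1.05 ± 0.17 (SD) over the 4 adult libraries. Sp7 and Dlx3, both called with age, correlated at r = 0.82 over all libraries but at 0.19 once the mean of each age was removed, and Runx2 and Sp7 at 0.58 and -0.09. Runx2 and Dlx3 correlated at 0.84 and 0.63. Libraries with more Dlx5 thus had more Twist1 at both ages. For Sp7 and Runx2 the r of -0.09 pools the deviations of both ages, and a relation within either age was not tested.

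**Figure D5:**
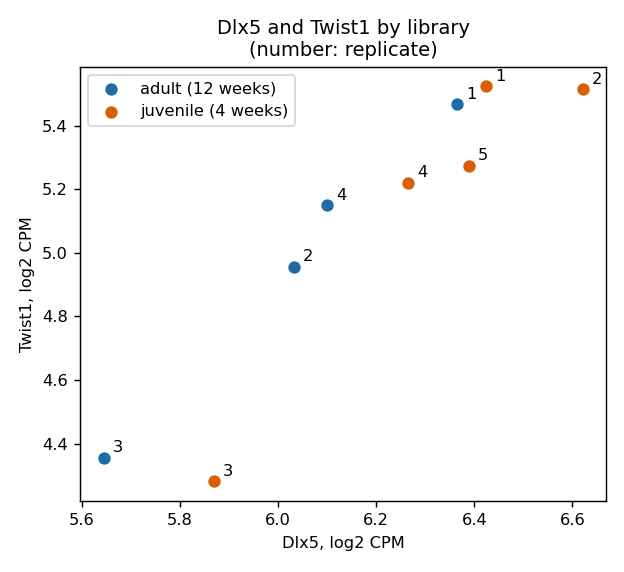
Log2 CPM of Dlx5 (x axis) against log2 CPM of Twist1 (y axis) in the 9 libraries, coloured by age and numbered by replicate. The points lie along 1 line (Pearson's r = 0.93), with replicate 3 of each age at its lower end and the ages intermixed.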

How the data were processed

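RNA was sequenced from laser-microdissected capillaries with surrounding cells of juvenile (n = 5) and adult (n = 4) OF. The authors amplified cDNA with a SMART-Seq kit, mapped paired-end reads to mm10 with TopHat2 and Bowtie2, and deposited raw counts per Ensembl gene; the submitters' processing notes also name featureCounts and GRCm38. Versions, strand setting and annotation release are not given in the sources used here. Library totals were 4856833 to 8077362 counts, and 37607 of 39179 identifiers had a GENCODE entry.

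Groups and replicate numbers came from the labels. Counts were tested with edgeR 4.0.16 (R 4.3.3): filterByExpr, TMM, quasi-likelihood F test, no covariates, Benjamini-Hochberg adjustment over 13418 genes. The standard error is the log2 fold change divided by the square root of F. CPM used TMM-scaled library sizes, and log2 CPM a prior count of 2. Single values were compared by exact two-sided permutation of the libraries. The fit was also run on simulated counts with known changes, and the outcome is not reported here. Genes that were not called may still differ between the ages.

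The members, gene lists and tests were chosen with earlier results of these data known. Named genes are the 9 factors, up to 4 called genes per direction and list with the smallest adjusted p, the defining genes of cell types, and the 5 genes most like Runx2, Sp7 and Dlx5, and others are marked as chosen after their values were seen. Alternatives were other scalings and filters, DESeq2 1.42.0, a replicate block, and the 7 libraries in which Xist exceeded Y-linked counts. Others were a gene set without 31 genes (mitochondrial, globin, immunoglobulin, Xist and Y chromosome) and each library left out. For the relative scale, other references and prior counts were used. Same-numbered libraries of the ages did not deviate together (r of -0.03 to 0.03), so replicate numbers do not pair them. Promoter windows of RefSeq were matched by symbol. One gene of a comparison list is not reported here by name.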

Additional observations from a re-analysis of the deposited data

Results flagged for a closer look

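Dlx6 had 5.47 CPM in juvenile replicate 2, far below the 17.03 to 20.8 CPM of the other 4 juvenile libraries. The gap to the nearest library was 0.755 of the range of the group, past the 95% limit for a group of this size. Of the 17 groups of libraries examined in this way, 1 was marked, and chance alone marks about 1 group in 20. Without that library the log2 fold change of Dlx6 was 0.17 in place of -0.04 and was not called.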

How the results depend on the processing

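The 520 genes called, 267 higher in juvenile and 253 higher in adult libraries, became 1492 (720 and 772) with DESeq2, 89 (53 and 36) with a replicate block and 73 (42 and 31) in the 7 libraries of the Xist kind. With scaling by the total only, 677 genes were called, of which 29.1% were higher in juvenile (51.3% with TMM) and 480 higher in adult libraries, and the median of all genes moved to -0.18. With each library left out, the counts ran from 262 to 651 in all, 145 to 306 higher in juvenile and 117 to 345 higher in adult libraries, with the lowest values without juvenile replicate 5 (262), 4 (275), 3 (293) and 2 (332). Of the 9 factors, 4 were called by DESeq2 (Sp7, Dlx3, Msx2 and Cbfb), 0 with the replicate block, 0 in the Xist libraries and 1 to 2 with each library left out. The replicate block gave Sp7 1.06 (edgeR, adjusted p = 0.140) and Dlx3 1.47 (edgeR, adjusted p = 0.0555); as the numbers do not pair the libraries, this is no paired test. In the 8 alternatives that used all 9 libraries, the log2 fold change was 0.85 to 1.06 for Sp7, 1.38 to 1.56 for Dlx3, 0.42 to 0.60 for Cbfb and 0.45 to 0.62 for Runx2. With each library left out, Dlx6 ran from -0.33 to 0.17. On the scale of the osteoblast products, Col1a1 as the reference gave -0.72 for Runx2, -0.34 for Sp7, 0.16 for Dlx3, -1.10 for Dlx5, -1.39 for Dlx6, -0.67 for Msx1, -1.20 for Twist1 and -0.79 for Cbfb, and the median of the list gave -0.0212 for Runx2, 0.36 for Sp7, -0.40 for Dlx5 and -0.0928 for Cbfb. The list without Dmp1 and Sost gave -0.0601 for Dlx5, and a prior count of 0.5 gave 0.0412 for Twist1 and 0.45 for Cbfb, the latter with an exact permutation p of 0.0476. With each library left out, the relative values ran from -0.15 to 0.26 for Dlx5, -0.71 to 0.17 for Dlx6, -0.32 to 0.25 for Twist1 and 0.33 to 0.52 for Cbfb, and in the Xist libraries Dlx3 was at 1.22 (exact permutation p = 0.0571). The cause was not tested for any of these changes, other than fewer libraries or another reference. Msx2 was below 70 counts in every library, which limits what can be said of it.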
